A study of Rattus norvegicus with 24 samples.

Results

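The data examined here are the kidney levels of 9 genes that encode ATP-binding cassette (ABC) efflux transporters, chosen by name: Abcb1a, Abcb1b, Abcg2, Abcc1, Abcc2, Abcc3, Abcc4, Abca1 and Abcg1. All 9 were found by their rat Entrez identifiers among the 17334 genes listed for each kidney, and all 9 passed the low-count filter that left 12778 genes for testing. The samples were left kidneys of 24 male PKD/Mhm (Cy/+) rats aged 8 months, 6 in each of 4 groups. Untreated animals formed the control group (Ctrl). The CoCM group received medium conditioned by a co-culture of ABCB5+ stromal cells from human skin with macrophages derived from the human THP-1 line and stimulated with IFN-γ and LPS, taken as the supernatant. The remaining groups received the human ABCB5+ cells themselves, either intraperitoneally (the intraperitoneal group) or intravenously (the intravenous group), and all treatments were given monthly for 6 months. The sources used here differ on the route by which CoCM was given. Every animal, Ctrl included, carried the heterozygous Cy mutation, a missense change in Anks6 that leads to cystic kidneys, and was picked by palpation of the abdomen, and no rats without the mutation were included. Whole kidney tissue was sequenced, which cannot tell fewer cells of a type from less RNA per cell.

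ABC transporters use ATP to carry substrates out of cells. In the kidney tubule, Abcb1a and Abcb1b encode the rodent forms of P-glycoprotein and Abcg2 encodes the breast cancer resistance protein, which export drugs and, for Abcg2, urate into the tubular fluid. Abcc1 to Abcc4 encode multidrug resistance-associated proteins that move organic anions and conjugates, with Abcc2 and Abcc4 on the apical side of proximal tubule cells and Abcc1 and Abcc3 on the basolateral side of other tubule segments. Abca1 and Abcg1 pass cholesterol to apolipoproteins and lipoprotein particles and are classical targets of the liver X receptors (LXR).

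Libraries held between 9304630 and 14125457 estimated counts. Of the 24, 4 libraries stood apart from the rest: animal 39 of CoCM, animal 38 of the intraperitoneal group and animals 36 and 37 of the intravenous group. On the first principal component of all tested genes, which held 56.3% of the variance, they lay between 80.8 and 97.4 and the other 20 between -53.0 and 11.5. The summed TPM (a level scaled to transcript length and to the library total) of the 9 injured tubule markers was 546 to 838 in the 4 and 6892 to 14501 in the other 20. That of the 9 macrophage markers was 157 to 478 against 1338 to 3322, and that of the 6 lymphocyte markers was 8.51 to 25.2 against 94.8 to 247, in each case without overlap. The 9 proximal tubule markers summed to 12370 to 25908 in the 4 and to 1446 to 12584 in the other 20. No marker of the proximal or injured tubule was at 0 in any library, while the macrophage marker Cd163 was at 0 in 1 library and the lymphocyte marker Ms4a1 in 2. No Ctrl animal was among the 4, so results are also given without them. Control animals carried numbers up to 24 and treated animals numbers from 26, so that treatment and the order of the animals cannot be told apart, and the labels name no batch.

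Sequences upstream of the start sites are shown for Abcb1b, Abcb1a and Abcg2, because the levels of Abcb1a and Abcg2 varied together across kidneys while that of Abcb1b tended the other way. They come from the RefSeq promoter table of the rat assembly GRCr8, which held an entry for 7 of the 9 genes (Abcc3 and Abcg1 had none) and which is not the build behind the files. All 3 are read 5′ to 3′ on the strand of the gene, and capitals mark the motifs described after them. Abcb1a and Abcg2 are given with the 250 bases before the start site. Annotated models of both genes reach further upstream, so that these windows lie within the annotated genes. For Abcb1b the 123 bases beyond the annotated end of the gene are given.
Abcb1b, chr4:26280157-26280279, minus strand: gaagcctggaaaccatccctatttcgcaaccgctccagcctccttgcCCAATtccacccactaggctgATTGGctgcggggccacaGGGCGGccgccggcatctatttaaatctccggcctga
Abcb1a, chr4:26397649-26397898, minus strand: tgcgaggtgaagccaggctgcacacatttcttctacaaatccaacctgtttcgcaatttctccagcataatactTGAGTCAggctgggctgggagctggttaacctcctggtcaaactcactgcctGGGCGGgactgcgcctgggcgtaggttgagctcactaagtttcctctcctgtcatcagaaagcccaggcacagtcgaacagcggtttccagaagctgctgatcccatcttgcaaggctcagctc
Abcg2, chr4:89075224-89075473, plus strand: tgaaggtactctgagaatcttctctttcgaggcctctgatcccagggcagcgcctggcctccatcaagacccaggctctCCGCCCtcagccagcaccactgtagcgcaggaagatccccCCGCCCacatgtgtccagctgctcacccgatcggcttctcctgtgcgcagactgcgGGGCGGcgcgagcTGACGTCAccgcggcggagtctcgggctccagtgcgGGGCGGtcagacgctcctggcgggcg

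Motifs were searched on both strands of the 250 bases before each start site, counted backward from -1. A GC box (GGGCGG) was found upstream of all 7 genes, against 32.4% of 27457 rat promoters of that length. The 7 windows held from 45.2% (Abcc2) to 77.6% (Abcc4) G and C bases, and the share in promoters of like content was not examined. Abcg2 held 4 GC boxes and 1 cAMP response element (TGACGTCA) at -62 to -55, a motif in 1.7% of promoters. Abcb1a held 1 AP-1 site (TGAGTCA) at -176 to -170, a motif in 3.98% of promoters. Abcb1b held 2 CCAAT boxes (CCAAT), at -203 to -199 and at -182 to -178, and Abcc2 held 1, against 34.3% of promoters. Abca1 held the E-box CACGTG (5.79% of promoters) and the TATA box TATAAA (13.1%). The core of the antioxidant response element (TGACNNNGC, 10.2%) was not among these letters in any of the 7, nor was a perfect direct repeat of the LXR type (DR4), which was in 0% of promoters. The paralogs Abcb1a and Abcb1b were identical at 65.9% of the aligned upstream bases (141 of 214), close to the 66.0% between Abcb1a and Abcg2 of another subfamily.

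Compared per transcript length, Abcg2 had the highest mean level over the 24 kidneys at 48.9 TPM, followed by Abcg1 at 24.4 TPM and Abcc4 at 17.9 TPM. Abcc3 had a mean of 14.6 TPM and Abcb1b one of 11.6 TPM. The lowest means were those of Abcc1 at 7.64 TPM, Abcb1a at 4.88 TPM, Abca1 at 4.54 TPM and Abcc2 at 3.76 TPM. Neighbours in this order overlapped between animals. Abcg2 was above Abcg1 in 18 of 24 kidneys, Abcc4 above Abcc3 in 15 and Abcb1a above Abca1 in 12, whereas Abcg1 was above Abcc4 in 22. The place of Abcb1b depended on the animal. It was above Abcc1 in all 20 of the other kidneys and in 0 of the 4 that stood apart. The counts behind these levels ran from 23.7 for Abcb1b to 2938 for Abcg2. Abcb1a, Abcb1b and Abcc3 had counts that were not whole in all 24 libraries, so some of their reads were shared with other transcripts and divided by the quantification, while the other 6 genes had whole counts throughout.

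**Figure D1:**
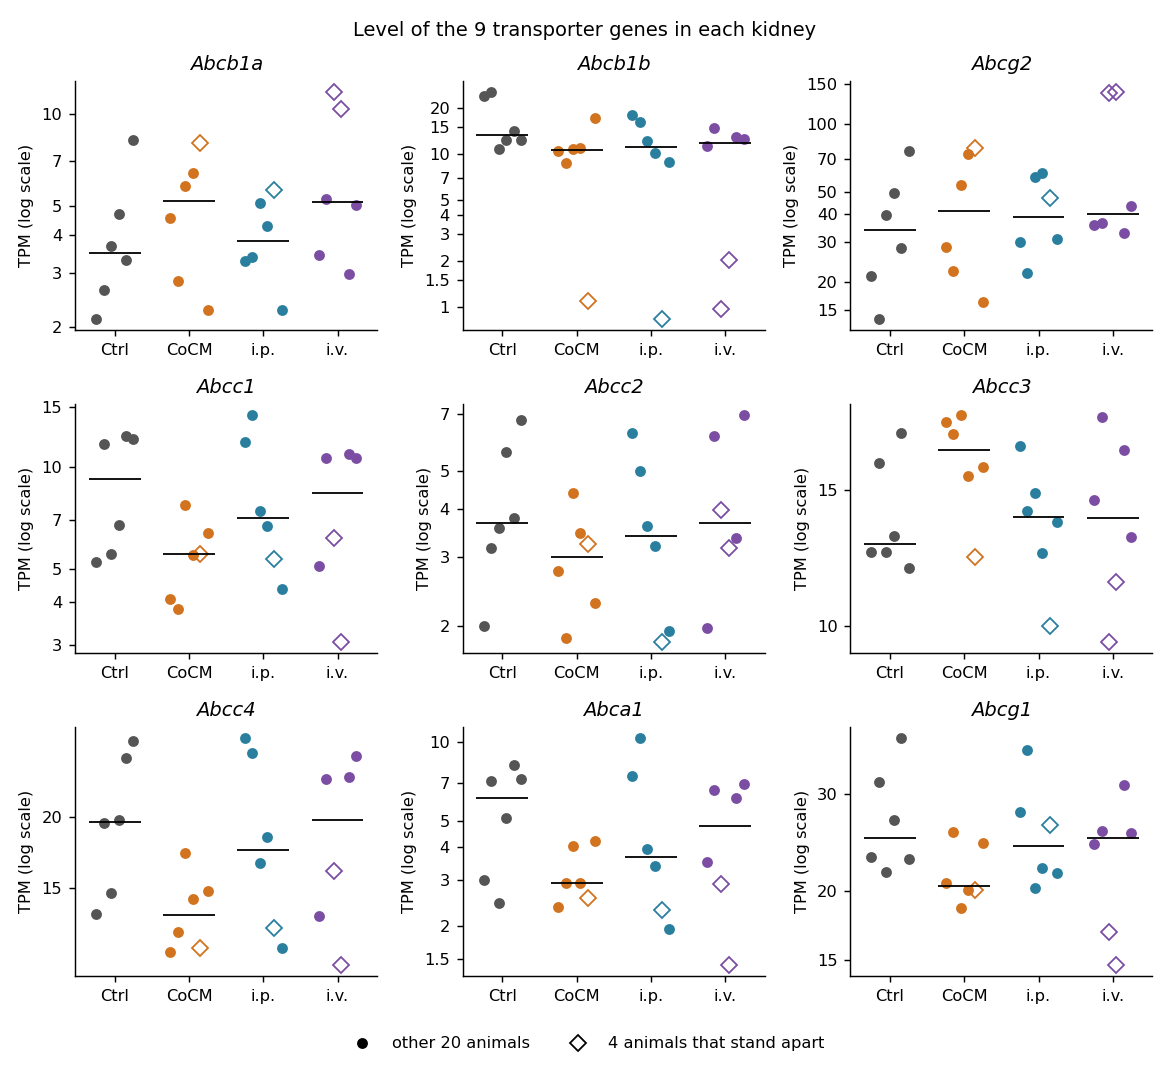
Level of each of the 9 genes in TPM on a log axis, by group, with 1 point per kidney and a bar at the group median. Open diamonds mark the 4 kidneys that stand apart, which are lowest for Abcb1b (0.835 to 2.02 TPM) and reach 138 TPM for Abcg2.

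None of the 9 genes passed the adjusted threshold of 0.05 in any of the comparisons (edgeR quasi-likelihood test), nor under DESeq2 or limma. Of all 12778 genes tested, 1 was called in CoCM against Ctrl (0.00783%) and 0% in the intraperitoneal group against Ctrl, the intravenous group against Ctrl, intraperitoneal against intravenous, CoCM against the mean of both cell groups, and the F-test over the 4 groups. At an unadjusted p under 0.05, 2 of the 9 were counted in CoCM against Ctrl, where 11.9% of all genes were. Of these, 1 was higher (5.96% of all genes) and 1 lower (5.96%). The count was 0 of 9 in the intraperitoneal group against Ctrl (1.77% of all genes, 1.26% higher and 0.509% lower). It was 1 of 9, higher, in the intravenous group against Ctrl (5.78%, of which 4.44% higher and 1.34% lower). It was 0 of 9 in intraperitoneal against intravenous cells (2.14%, 0.689% higher and 1.46% lower). It was 2 of 9, 1 in each direction, in CoCM against the mean of the cell groups (7%, 3.21% higher and 3.79% lower) and 1 of 9 in the F-test (4.71%). With DESeq2 the unadjusted counts were 3, 0, 2, 0, 2 and 1 of 9 in the same order, where 13.5%, 2.17%, 7.58%, 2.82%, 8.7% and 7.02% of all genes were counted. In no comparison of 2 groups did a gene of the 9 have groups that did not overlap, where 1.38% of all genes did in CoCM against Ctrl, 0.047% in the intraperitoneal group against Ctrl, 0.11% in the intravenous group against Ctrl and 0.0626% in intraperitoneal against intravenous. The comparisons with Ctrl share the same 6 control animals. The median log2 fold change of the 9 genes against Ctrl was -0.35 in CoCM, -0.04 in the intraperitoneal group and -0.02 in the intravenous group. Over all genes these medians lay between 0.004 and 0.013. With the transcript length slope of each library as a covariate, described below, the CoCM median was 0.05, beside 0.008 over all genes.

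**Figure D2:**
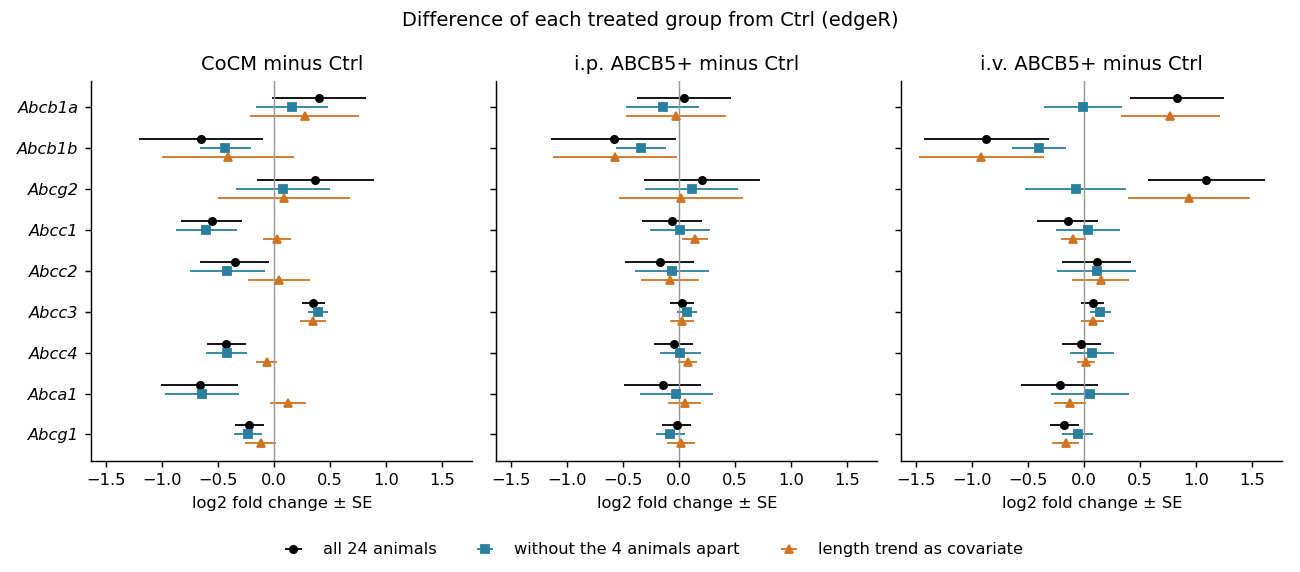
Log2 fold change of each gene from Ctrl with its standard error, for CoCM, the intraperitoneal group and the intravenous group, fitted over all 24 animals, without the 4 that stand apart, and with the length slope of each library as a covariate. The intravenous group values of Abcg2 and Abcb1a (1.09 and 0.83) go to -0.08 and -0.01 without the 4 animals, while Abcc3 in CoCM lies between 0.35 and 0.39 in the 3 fits.

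The largest ratio of highest to lowest level in TPM among the 9 genes was that of Abcb1b (30.1 over the 24 kidneys, against 10.1 for Abcg2), a P-glycoprotein gene that rodents carry beside Abcb1a. In Ctrl it ranged from 10.7 to 25.2 TPM with a median of 13.2 TPM. In CoCM it ran from 1.09 to 17.0 TPM (median 10.6), in the intraperitoneal group from 0.835 to 17.98 TPM (median 11.1) and in the intravenous group from 0.965 to 14.7 TPM (median 11.8). The low ends belong to the animals that stood apart, whose values of 1.09, 0.835, 0.965 and 2.02 TPM lay below the 8.76 to 25.2 TPM of the other 20. The log2 fold change from Ctrl was -0.65 ± 0.56 (SE) in CoCM, -0.58 ± 0.56 in the intraperitoneal group and -0.87 ± 0.56 in the intravenous group, with adjusted p = 0.590, 0.978 and 0.673. Without the 4 animals these were -0.43 ± 0.22, -0.34 ± 0.22 and -0.40 ± 0.24, with adjusted p = 0.321 in CoCM, 0.99986 in the intraperitoneal group and 0.99998 in the intravenous group. The 3 groups thus had means below Ctrl with and without the 4 animals, and none of these differences passed the test. Among the 20 other kidneys, Abcb1b had a Pearson r of 0.65 with the summed level of the macrophage markers, as a description over 20 libraries. It was also 0.65 with that of the lymphocyte markers, and -0.72 with that of the proximal tubule markers. The part of any of these lists in the level of Abcb1b was not tested.

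Abcb1a, the other P-glycoprotein gene, lies next to Abcb1b and was high in several of the animals with low Abcb1b. Its level was 2.12 to 8.18 TPM in Ctrl (median 3.50), 2.27 to 8.05 TPM in CoCM (median 5.19), 2.27 to 5.63 TPM in the intraperitoneal group (median 3.83) and 2.97 to 11.8 TPM in the intravenous group (median 5.15). The highest values were the 11.8 and 10.4 TPM of intravenous animals 36 and 37. They were followed by 8.18 TPM in Ctrl animal 24 and 8.05 TPM in CoCM animal 39, so the 4 animals overlapped the others. The log2 fold change from Ctrl was 0.40 ± 0.42 in CoCM (adjusted p = 0.648), 0.04 ± 0.42 in the intraperitoneal group (adjusted p = 0.995) and 0.83 ± 0.42 in the intravenous group (adjusted p = 0.673). These were 0.16 ± 0.32, -0.14 ± 0.32 and -0.01 ± 0.34 without the 4 animals. With each animal left out in turn, the CoCM value ran from 0.172 (without CoCM animal 39) to 0.695 (without Ctrl animal 24). The level in the intraperitoneal group was lower than in the intravenous group by a log2 fold change of -0.79 ± 0.42 (adjusted p = 0.99989), and by -0.135 without the 4 animals.

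As the counts of both P-glycoprotein genes were not whole, so that reads of 1 may have been assigned to the other, their sum and their balance were also examined. Abcb1b made up 78.3% ± 12.1 (SD, n = 6) of the summed TPM of the pair in Ctrl, 62.2% ± 26.2 in CoCM, 66.7% ± 27.1 in the intraperitoneal group and 54.4% ± 33.2 in the intravenous group. The differences from Ctrl were -16.1, -11.6 and -23.9 percentage points, with p = 0.193, 0.437 and 0.154 in a two-sided exact permutation test whose smallest possible p is 0.00216. The share was 7.59% to 16.3% in the 4 animals and 59.9% to 91.8% in the other 20. Without them the differences were -6.04, -0.832 and -2.68 percentage points (exact permutation p = 0.385, 0.874 and 0.676). The summed level of the pair was 14.4 to 27.8 TPM in Ctrl, 9.14 to 19.3 TPM in CoCM, 6.46 to 21.3 TPM in the intraperitoneal group and 12.4 to 19.9 TPM in the intravenous group, all of which overlap. In the 4 animals it was 6.46 to 12.7 TPM and in the other 20 it was 11.1 to 27.8 TPM. Abcb4, the phospholipid transporter gene on the other side of Abcb1b, was also low in these animals, at 0.380 to 0.947 TPM against 1.48 to 4.02 TPM in the other 20.

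**Figure D3:**
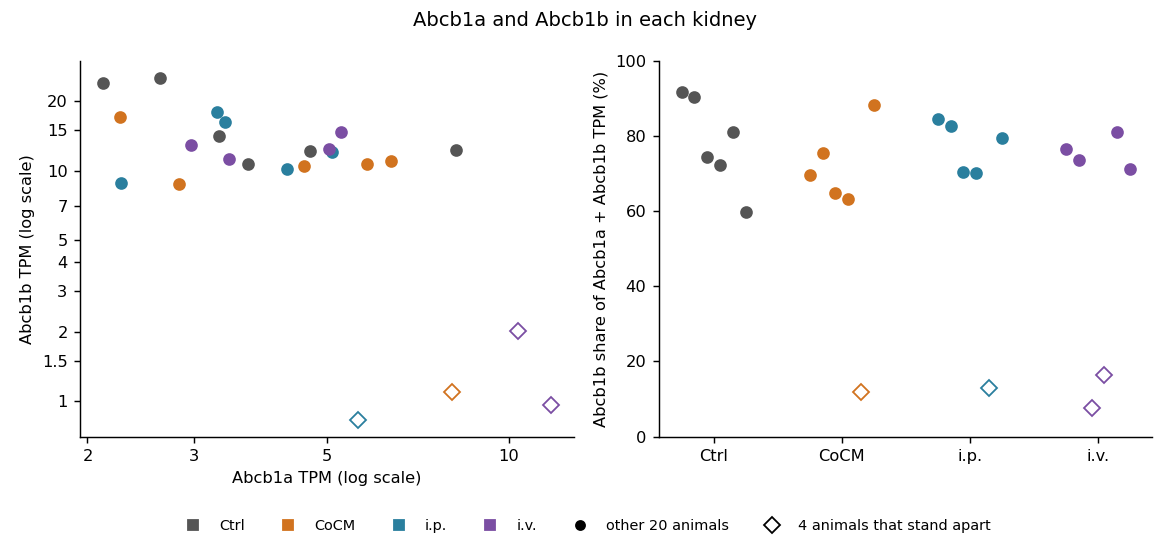
Left, Abcb1a against Abcb1b in TPM on log axes, with 1 point per kidney. Right, the share of Abcb1b in the summed TPM of the pair by group in percent. The 4 kidneys that stand apart (open diamonds) have shares between 7.59% and 16.3%, all below the 59.9% to 91.8% of the other 20.

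Abcg2 had the highest values of the 9 genes and the largest difference from Ctrl in the intravenous group. It ranged from 13.7 to 75.9 TPM in Ctrl (median 33.9), from 16.2 to 78.4 TPM in CoCM (median 41.1), from 21.8 to 60.6 TPM in the intraperitoneal group (median 38.8) and from 33.01 to 138 TPM in the intravenous group (median 39.8). Both intravenous animals that stood apart had 138 TPM. The other 4 animals of that group had 33.01 to 43.3 TPM and lay inside the range of Ctrl. The log2 fold change from Ctrl was 1.09 ± 0.52 in the intravenous group (unadjusted p = 0.0487, adjusted p = 0.673), with 3 of 6 animals above the mean of Ctrl, and it was 0.37 ± 0.52 in CoCM (adjusted p = 0.738) and 0.21 ± 0.52 in the intraperitoneal group (adjusted p = 0.978). Without the 4 animals the intravenous difference was -0.08 ± 0.45 (adjusted p = 0.99998), that of CoCM was 0.08 ± 0.42 and that of the intraperitoneal group was 0.11 ± 0.42. When each animal was left out in turn, the difference ran from 0.095 (without CoCM animal 39) to 0.66 (without Ctrl animal 24) in CoCM, and from 0.024 (without Ctrl animal 12) to 0.50 (without Ctrl animal 24) in the intraperitoneal group. In the intravenous group, leaving out animal 37 alone gave 0.67 and leaving out animal 36 alone 0.77.

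Across kidneys Abcg2 varied with the proximal tubule markers. Over the 20 other kidneys its log2 level had a Pearson r of 0.93 and a Spearman rho of 0.94 with the summed level of the 9 proximal tubule markers. For Abcb1a these were 0.81 and 0.75. Abcg1 had an r of -0.70 and Abcb1b one of -0.72 with the same list. Abcc2 had one of 0.36 and Abca1 one of -0.29, while Abcc1, Abcc3 and Abcc4 lay between -0.13 and 0.02. Abcb1a and Abcg2 had an r of 0.85 with each other over the 20 and of 0.93 over the 24. These are descriptions across kidneys in which both measures come from the same library, and the part of tubule content in the level of either gene was not tested. The 3 tested genes with the pattern most like Abcg2 were Agxt2, an aminotransferase of kidney and liver (r = 0.99 over 24 kidneys), Tmem174 (0.99) and Ptprn (0.99). For Abcb1a they included Erlin1 (0.95) and Ncbp1 (0.95). For Abcb1b they were Eeig2 (0.98), Il16, a cytokine of lymphocytes (0.97), and Dapp1, an adaptor of B cell signalling (0.97), and these values fell to 0.77, 0.76 and 0.80 over the 20.

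**Figure D4:**
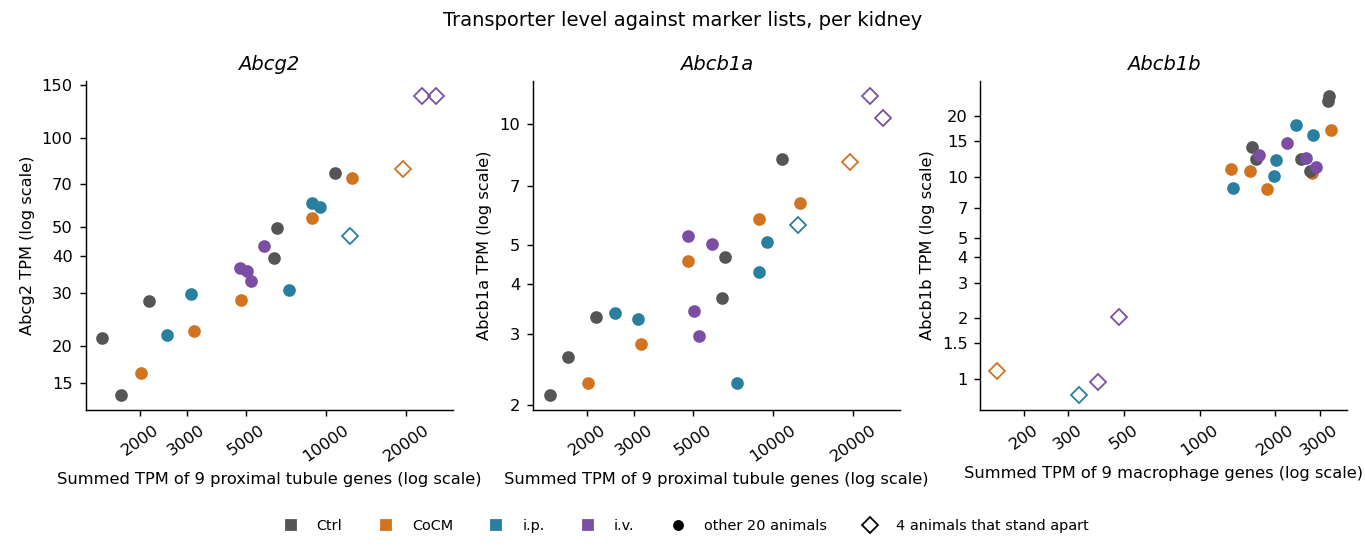
Abcg2 and Abcb1a against the summed TPM of 9 proximal tubule markers, and Abcb1b against that of 9 macrophage markers, with all axes in TPM on log scales and 1 point per kidney, coloured by group. Abcg2 climbs with the proximal tubule sum (Pearson r 0.93 over the 20 kidneys drawn as filled circles), and the 4 open diamonds hold the lowest Abcb1b and the lowest macrophage sums.

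Abcc3, which exports glucuronide and bile acid conjugates across the basolateral membrane, was the member with the smallest p in CoCM. Its level was 11.9 to 17.8 TPM in Ctrl (median 12.8), 12.3 to 18.8 TPM in CoCM (median 16.9), 9.998 to 17.1 TPM in the intraperitoneal group (median 13.9) and 9.54 to 18.7 TPM in the intravenous group (median 13.8). In CPM, counts scaled to library size as in the test, Ctrl ran from 44.2 to 59.7 and CoCM from 54.2 to 77.0, with 5 of 6 CoCM kidneys above every Ctrl kidney. In TPM only CoCM animals 26 and 34 (18.4 and 18.8) lay above the highest Ctrl kidney (17.8). The log2 fold change of CoCM from Ctrl was 0.35 ± 0.10 (unadjusted p = 0.0028, adjusted p = 0.255), and that from the mean of the cell groups was 0.30 ± 0.09 (unadjusted p = 0.0030, adjusted p = 0.688). The difference of the intraperitoneal group from Ctrl was 0.03 ± 0.10, and that of the intravenous group was 0.08 ± 0.10. Without the 4 animals the CoCM difference was 0.39 ± 0.09 (adjusted p = 0.207), and it lay between 0.29 and 0.41 when each animal was left out in turn. With limma on log2(TPM + 1) it was 0.22 (unadjusted p = 0.149, adjusted p = 0.520). Of all genes, 11.9% had an unadjusted p under 0.05 in CoCM against Ctrl. The genes most like Abcc3 were Stk25 (r = 0.93), Cwf19l1 (0.92) and the RNA helicase gene Ddx39b (0.92).

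Abcc4, Abcc1, Abcc2 and Abca1 had lower means in CoCM than in Ctrl. Abcc4, an apical exporter of organic anions and cyclic nucleotides, ranged from 13.5 to 27.3 TPM in Ctrl (median 19.7) and from 11.6 to 17.3 TPM in CoCM (median 13.5). It ran from 11.8 to 27.6 TPM in the intraperitoneal group and from 10.99 to 25.6 TPM in the intravenous group. In CoCM, 4 of 6 kidneys lay below every Ctrl kidney in CPM, and the log2 fold change was -0.42 ± 0.17 (unadjusted p = 0.0237, adjusted p = 0.379). Against the mean of the cell groups it was -0.39 ± 0.15 (unadjusted p = 0.0185, adjusted p = 0.688). Abcc1, a broad exporter of glutathione conjugates, ran from 5.24 to 12.3 TPM in Ctrl (median 9.22) and from 3.82 to 7.74 TPM in CoCM (median 5.54). Its log2 fold change was -0.56 ± 0.27 (adjusted p = 0.420). Abca1 ran from 2.45 to 8.21 TPM in Ctrl (median 6.11) and from 2.37 to 4.21 TPM in CoCM (median 2.92), a log2 fold change of -0.66 ± 0.34 (adjusted p = 0.442). Abcc2, the apical exporter of glucuronides, ran from 1.99 to 6.76 TPM in Ctrl (median 3.67) and from 1.86 to 4.38 TPM in CoCM (median 3.01), with -0.35 ± 0.31 (adjusted p = 0.5996). This Abcc2 difference lay between -0.486 and -0.177 (without Ctrl animal 24) when each animal was left out in turn. In the intraperitoneal group Abcc1 ran from 4.38 to 14.2 TPM (median 7.06), Abca1 from 1.96 to 10.3 TPM (median 3.65) and Abcc2 from 1.82 to 6.27 TPM (median 3.41). In the intravenous group Abcc1 ran from 3.05 to 10.9 TPM (median 8.41), Abca1 from 1.43 to 6.94 TPM (median 4.80) and Abcc2 from 1.98 to 6.95 TPM (median 3.68). For these 4 genes all groups overlapped. The log2 fold changes without the 4 animals were -0.42 for Abcc4, -0.60 for Abcc1, -0.64 for Abca1 and -0.42 for Abcc2. In both cell groups the log2 fold changes from Ctrl lay between -0.22 and 0.11, with standard errors from 0.17 to 0.34.

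The levels of Abcc1, Abcc4 and Abca1 moved together across kidneys and with the transcript length slope of the library, the change in log2 CPM per doubling of transcript length. The slope was taken over all tested genes after centring each gene on its mean. Over the 20 other kidneys r was 0.93 between Abcc1 and Abca1, 0.93 between Abcc1 and Abcc4, 0.89 between Abcc4 and Abca1 and 0.81 between Abcc2 and Abcc4. With the length slope it was 0.93 for Abcc1, 0.92 for Abcc4, 0.94 for Abca1 and 0.65 for Abcc2, against -0.37 for Abcc3 and -0.12 for Abcg2. Abca1, Abcc2, Abcc1 and Abcc4 stand at the 97.2, 92.4, 92.0 and 89.2 percentiles of transcript length among the genes tested. Abcc3 stands at 92.8 and Abcg2 at 51.4. Abcb1a, Abcb1b and Abcg1, at 91.7, 84.0 and 79.9, had an r with the slope of 0.03, 0.29 and 0.49 over the 20. The slope was -0.101 to -0.0221 in CoCM, negative in all 6 kidneys, and -0.0583 to 0.106 in Ctrl. It was -0.0905 to 0.0999 in the intraperitoneal group and -0.0698 to 0.075 in the intravenous group.

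With the slope as a covariate, an analysis added after the data had been seen, the log2 fold change of CoCM from Ctrl was 0.03 ± 0.13 for Abcc1, -0.07 ± 0.09 for Abcc4, 0.13 ± 0.16 for Abca1 and 0.05 ± 0.28 for Abcc2. The sign turned for 3 of these 4 genes. Abcc3 kept a value of 0.35 ± 0.12 (unadjusted p = 0.0070, adjusted p = 0.645). The slope is estimated from the same libraries as the group means, and what set it was not tested. The genes most like Abcc1 were Etv3 (r = 0.96), Cpne3 (0.96) and Strn (0.96). Those most like Abca1 were the long kinase gene Atm (0.96), Pcm1 (0.95) and Rfx7 (0.95), those most like Abcc4 were Nhs (0.95), the growth factor receptor gene Met (0.94) and Cspg4b (0.94), and those most like Abcc2 were the endocytic adaptor gene Dab2 (0.89), Slc16a12 (0.87) and Picalm (0.86).

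**Figure D5:**
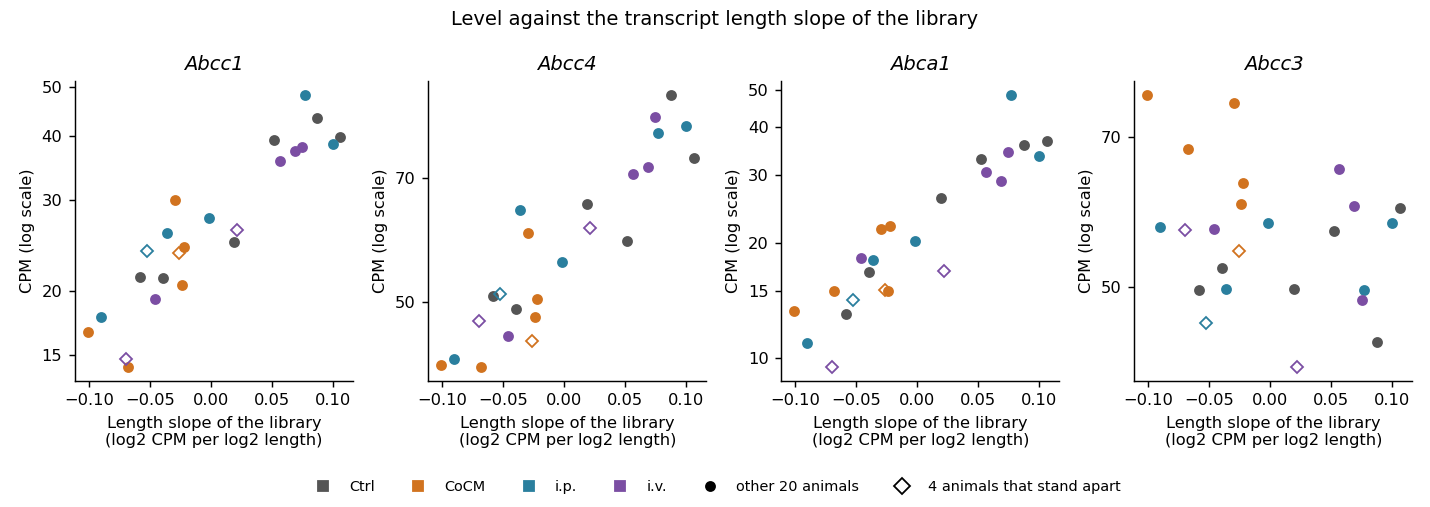
CPM of Abcc1, Abcc4, Abca1 and Abcc3 on log axes against the transcript length slope of each library, with 1 point per kidney, coloured by group. The first 3 climb with the slope (Pearson r 0.92 to 0.94 over the 20 kidneys drawn as filled circles), Abcc3 does not (r -0.37), and all 6 CoCM kidneys have slopes below 0.

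Abcg1, the partner of Abca1 in cholesterol efflux, varied less than most. It ran from 21.6 to 37.9 TPM in Ctrl (median 25.02), from 18.7 to 25.6 TPM in CoCM (median 20.4), from 20.2 to 36.1 TPM in the intraperitoneal group (median 24.2) and from 14.7 to 31.2 TPM in the intravenous group (median 24.9). The lowest values, 14.7 and 16.8 TPM, were those of intravenous animals 37 and 36. The log2 fold changes from Ctrl were -0.22 ± 0.13 in CoCM (adjusted p = 0.472), -0.02 ± 0.13 in the intraperitoneal group (adjusted p = 0.988) and -0.18 ± 0.13 in the intravenous group (adjusted p = 0.686). They were -0.23, -0.08 and -0.06 without the 4 animals. Its r with Abca1 was 0.56 over the 20 kidneys, and with Abcg2 -0.68. The genes most like it were Tnfaip1 (r = 0.87), the lipid desaturase gene Scd2 (0.83) and Gpr39 (0.80).

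Of 47 further ABC proteins listed, 39 were in the files and 35 were tested. The rat Abcb5 gene, the counterpart of the marker that names the injected human cells, was not analysed here. None of the 35 passed the adjusted threshold in a comparison with Ctrl (edgeR). At an unadjusted p under 0.05, 3 were higher and 1 was lower in CoCM, where 5.96% of all genes were higher and 5.96% lower. The count was 0 in the intraperitoneal group (1.77% of all genes), and 6 were higher in the intravenous group (4.44% of all genes). The smallest p belonged to Abcf3, a cytosolic ABC protein with no transport function, at 0.25 ± 0.08 on the log2 scale in the intravenous group (adjusted p = 0.673). The highest mean levels were those of the peroxisomal transporter Abcd3 at 61.8 TPM, Abcf1 at 53.1 TPM, Abca2 at 52.4 TPM, Abcf2 at 48.0 TPM and Abcf3 at 45.7 TPM. Abcg2, with a mean of 48.9 TPM over the 24 kidneys, had one of 38.6 TPM over the other 20, below those of all 5 in these 20 (45.4 to 57.7 TPM). Abcd3 was 75.1 to 94.7 TPM in the 4 animals that stood apart and 40.01 to 72.3 TPM in the other 20. Abcb4 differed from Ctrl by -0.50 ± 0.37 in CoCM, -0.18 ± 0.37 in the intraperitoneal group and -0.41 ± 0.37 in the intravenous group (adjusted p = 0.549, 0.978 and 0.708).

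The genes that act with these transporters showed the same lack of calls. All 16 nuclear receptors and Nrf2 pathway genes, 13 of 14 LXR targets and cholesterol partners, all 6 apical scaffold proteins and all 13 uptake and efflux partners of the SLC families were tested, and none passed the adjusted threshold against Ctrl. The nuclear receptor list had a median log2 fold change of 0.08 in CoCM, 0.01 in the intraperitoneal group and 0.12 in the intravenous group. Its smallest p was that of the bile acid receptor gene Nr1h4 in the intravenous group, at 0.50 ± 0.20 (adjusted p = 0.673). The LXR list had medians of -0.16, -0.08 and -0.22 in the same order, led by Mylip, a ligase that degrades the LDL receptor, at -0.25 ± 0.11 in CoCM (adjusted p = 0.395). Its summed level was 691 to 1223 TPM in the 4 animals that stood apart and 1729 to 3474 TPM in the other 20. The scaffold list had medians of -0.02, 0.01 and 0.04, led by moesin (Msn) at -0.54 ± 0.18 in CoCM (adjusted p = 0.319). The SLC list had medians of 0.69, 0.35 and 0.98, and 3 of its 13 genes had an unadjusted p under 0.05 in the intravenous group, all higher, where 4.44% of all genes were. Its leading gene was Slc22a7, an organic anion carrier, at 2.84 ± 1.11 (adjusted p = 0.673) with a mean of 5.83 TPM ± 7.42 (SD, n = 6) against 0.971 ± 1.39 in Ctrl. The SLC sum was 2186 to 3612 TPM in the 4 animals and 444 to 2079 TPM in the other 20.

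The cell type lists were examined in the same way, and no marker passed the adjusted threshold against Ctrl. The proximal tubule list (9 of 9 tested) had medians of 0.10, 0.22 and 0.78 in CoCM, the intraperitoneal and intravenous groups. At an unadjusted p under 0.05, 2 of its genes were lower in CoCM (5.96% of all genes) and 2 higher in the intravenous group (4.44%). Its smallest p was that of the lactate transporter gene Slc5a12, which went against the list median in CoCM at -1.07 ± 0.36 (adjusted p = 0.321). The macrophage list (9 of 9) had medians of -0.56, -0.49 and -0.53, led by Csf1r at -0.60 ± 0.44 in CoCM (adjusted p = 0.547). The injured tubule list (9 of 9) had medians of -0.10, -0.20 and -0.48, while its smallest p was that of Sox9, which went the other way at 0.29 ± 0.20 in CoCM (adjusted p = 0.524). The endothelial list (8 of 8) had a median of -0.39 in CoCM with 4 genes lower at an unadjusted p under 0.05 (5.96% of all genes), led by the angiopoietin receptor gene Tek at -0.44 ± 0.14 (adjusted p = 0.301). The fibroblast list (7 of 7) had medians of -0.59, -0.42 and -0.58 and was led by Dcn at -0.81 ± 0.55 in CoCM (adjusted p = 0.523). The lymphocyte list (6 of 7) had medians of -0.13, -0.33 and -0.39 and was led by Cd4 at -0.79 ± 0.53 in CoCM (adjusted p = 0.516). The podocyte list (5 of 5) had medians of -0.11, -0.11 and 0.02, with the smallest p for Synpo at -0.77 ± 0.29 in CoCM (adjusted p = 0.353). The summed podocyte level had a median of 344 TPM in CoCM and 332 TPM in Ctrl. The list of the thick ascending limb and distal tubule (5 of 5) had medians of 0.31, 0.46 and 0.15 and was led by Cldn16 at 0.44 ± 0.23 in the intraperitoneal group (adjusted p = 0.978). The collecting duct list (6 of 6) had medians of 0.35, 0.47 and 0.09 and was led by Aqp2 at 0.50 ± 0.24 in the intraperitoneal group (adjusted p = 0.978). All 4 red blood cell genes were lower in the intravenous group at an unadjusted p under 0.05 (1.34% of all genes), led by Hba-a2 at -2.23 ± 0.82 (adjusted p = 0.673). Their summed level was 34007 TPM in Ctrl animal 1, 479 to 6644 TPM in the other 5 Ctrl animals and 484 to 4603 TPM in the intravenous group, so the groups overlapped.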

How the data were processed

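RNA of 24 left kidneys was sequenced with BGISeq-500 libraries. Per the submitters' processing notes, reads were trimmed with Trim Galore 0.6.4 and quantified with kallisto 0.4.6, and the build rn6 is named. The study's methods also name a package of human gene models. For each animal the authors deposited estimated counts, which were not normalized, and TPM values, which were scaled to transcript length. TPM summed to 964191 to 976409 per library over the genes listed. Symbols and upstream sequences were from RefSeq (GRCr8), in which 17179 of 17334 identifiers were found. Whether counting used strand is not given in the sources used here, and overlapping genes, such as Abcb1a with Rundc3b, may share reads.

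Groups came from the labels. Estimated counts were rounded, filtered with filterByExpr, scaled by TMM and fitted over all 24 animals in edgeR 4.0.16 (R 4.3.3) with 1 mean per group. The quasi-likelihood test was adjusted by the Benjamini-Hochberg method over all 12778 genes at a threshold of 0.05. A standard error is the log2 fold change divided by the square root of F. DESeq2 1.42.0 and limma 3.58.1 on log2(TPM + 1) were alternatives, beside scaling by median-ratio size factors, testing without the low-count filter, fitting only the groups compared, leaving out the 4 animals that stood apart and leaving out each animal in turn. The slope covariate was added after the data had been seen. Relative transcript length was the deposited count divided by TPM. Shares were compared by two-sided exact permutation tests over 924 divisions, or over all divisions of the animals left. Correlations used log2 CPM (prior count 2). The code was tested on simulated counts. A floor of 3 counts is 0.322 CPM in the smallest library, for counting error only.

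The 9 genes were all named. In addition the 3 tested genes with the highest r to each (average log2 CPM above 1), the gene with the smallest p against Ctrl in each list, the 5 most abundant other ABC proteins, Abcb4 and Abcb5 were named, except for items that are not reported here. The genes, the lists and the 4 animals were chosen with earlier results of these data known, and correlations with marker lists were added after the data had been seen. No list is therefore independent evidence.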

Additional observations from a re-analysis of the deposited data

Results flagged for a closer look

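The share of Abcb1b in the summed TPM of Abcb1a and Abcb1b was lowest in CoCM animal 39, at 11.97%, where the other 5 animals of the group lay between 63.22% and 88.23%. Its gap to the nearest animal made up 0.672 of the group's range. In the intraperitoneal group the share was lowest in animal 38, at 12.92%, where the others lay between 70.33% and 84.58%, a gap of 0.801 of the range. Both gaps were above Dixon's 95% critical value for 6 samples. In all, 40 combinations of a measure and a group were examined, of which chance flags about 2. The same 2 animals, with intravenous animals 36 and 37, are those that stood apart over all genes.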

How the results depend on the processing

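No alternative called any of the 9 genes. The number of all genes called in CoCM against Ctrl was 78 with DESeq2 and 0 with only the groups compared, with limma, without the 4 animals that stood apart and with the length slope, against 1 in the report. It was 0 to 31 when each animal was left out, 31 without Ctrl animal 23, and 0 to 1 otherwise. With DESeq2 it was 1 in the intravenous group against Ctrl, 1 in intraperitoneal against intravenous, 3 in CoCM against the cell groups and 10 in the F-test, against 0 each in edgeR, where leaving out each animal gave 0 to 1 in the F-test. Of the 27 most similar genes, 10 stayed among the nearest 3 over the other 20 animals and 11 with Spearman's rho. The share of Abcb1b kept its direction, with differences from Ctrl of -21.29 to -6.039 percentage points in CoCM, -15.28 to -0.832 in the intraperitoneal group and -29.28 to -14.55 in the intravenous group when each animal was left out. In the intravenous group each such fit kept animal 36 or 37, whose shares were 7.59% and 16.3%. Without the 4 animals the intravenous difference was -2.68 percentage points (exact permutation p = 0.676). The sign of the following log2 fold changes, none of which was called, turned, and the cause was not tested. Without the 4 animals, they were -0.145 for Abcb1a, 0.01 for Abcc1 and 0.012 for Abcc4 in the intraperitoneal group against Ctrl. In the intravenous group against Ctrl they were -0.009 for Abcb1a, -0.075 for Abcg2, 0.039 for Abcc1, 0.071 for Abcc4 and 0.055 for Abca1. In intraperitoneal against intravenous they were 0.187 for Abcg2, -0.03 for Abcc1, -0.077 for Abca1 and -0.021 for Abcg1, and in CoCM against the cell groups 0.236 for Abcb1a, -0.064 for Abcb1b and 0.065 for Abcg2. With the length slope, they were 0.027 for Abcc1, 0.046 for Abcc2 and 0.126 for Abca1 in CoCM against Ctrl, and 0.003, 0.012 and 0.163 against the cell groups. In the intraperitoneal group against Ctrl they were -0.028 for Abcb1a, 0.142 for Abcc1, 0.078 for Abcc4, 0.053 for Abca1 and 0.019 for Abcg1, and for Abcc4 0.017 in the intravenous group against Ctrl and 0.061 in intraperitoneal against intravenous. With limma, Abcc3 was at -0.031 in the intraperitoneal and -0.014 in the intravenous group against Ctrl. When each animal was left out, the sign turned for Abcb1a (-0.151 to 0.342), Abcc1 (-0.256 to 0.052), Abcc2 (-0.348 to 0.02), Abcc3 (-0.023 to 0.065), Abcc4 (-0.143 to 0.06), Abca1 (-0.481 to 0.004) and Abcg1 (-0.122 to 0.046) in the intraperitoneal group against Ctrl, and for Abcc2 (-0.056 to 0.291) and Abcc4 (-0.114 to 0.073) in the intravenous group against Ctrl. It turned for Abcc1 (-0.097 to 0.211), Abcc3 (-0.116 to 0.011), Abcc4 (-0.107 to 0.073) and Abca1 (-0.252 to 0.234) in intraperitoneal against intravenous, and for Abcb1a (-0.251 to 0.122) and Abcb1b (-0.145 to 0.308) in CoCM against the cell groups. No paired analysis was possible because no animal number occurs in more than 1 group.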
